A study of Homo sapiens with 6 samples.

Results

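The 38 genes described here encode proteins of the lysosome (27 genes) and of the autophagy machinery (11 genes), chosen by name and role among the 60671 genes of the expression table. The table lists 37 of them by name. HEXA, whose row carries an identifier only, was found through its Ensembl identifier ENSG00000213614. All 38 passed the filter on low values and were among the 14377 genes tested.

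The RNA-Seq libraries came from U87, an established human glioblastoma cell line. Cells received 100 μM rutaecarpine in 0.1% DMSO, the solvent, for 48 h (n = 3) or 0.1% DMSO alone for 48 h (n = 3). Cells of both groups were grown in medium with 10% fetal bovine serum. Rutaecarpine was diluted for dosing in medium without serum, and the labels do not name the medium in which control cells received DMSO. The labels name 1 cell line and do not say whether replicates were separate cultures, so p values measure the spread between these libraries, which may be technical. The paper states in general that its n counts independent experiments, but does not say so of the RNA-Seq libraries.

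Lysosomes are acidic organelles in which cathepsins and other hydrolases digest proteins, lipids and sugars, and a proton pump, the V-ATPase, keeps them acidic. In autophagy a double membrane closes around cytoplasmic cargo and then fuses with the lysosome. Proteins of the ATG8 family are attached to that membrane, and receptors such as p62 link cargo to them. The transcription factors TFEB, TFE3 and MITF are known to raise many lysosome and autophagy genes, and mTORC1 at the lysosome surface restrains both those factors and the start of autophagy. Tumor cells, glioblastoma cells included, are known to carry high cathepsin levels.

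Values are TPM, a measure of transcript abundance that is corrected for gene length and scaled to a common total per library, here 990889 to 995734. Read depth is therefore unknown and counting error cannot be stated. Control replicate 3 stood apart, with a median log2(TPM + 1) over tested genes of 3.56, against 3.81 to 4.00 in the other 5 libraries. Values without it are given where it changes a call or moves a value far. Of the markers of a glioblastoma line, VIM was at 7498 ± 499 TPM in control and 4857 ± 381 in rutaecarpine libraries (SD, n = 3 each), CD44 was at 654.5 and 756, GFAP was at 3.98 and 4.67, and S100B and SOX2 were near 0. VIM (adjusted p = 0.00894) and NES, from 19.5 to 13.2 TPM (adjusted p = 0.0491), fell, and OLIG2 rose from 1.59 to 3.63 TPM (adjusted p = 0.0262). Macrophage and microglia markers, 8 genes whose lineage also carries lysosomal genes, summed to 7.72 to 8.70 TPM in control and 6.73 to 8.27 in rutaecarpine libraries. Nearly all of that was CSF1R, while AIF1, TYROBP and C1QA were at 0 in all 6 libraries.

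After rutaecarpine 15 of the 38 genes were called, and 23 were not. Among the lysosome genes 8 fell, among them the abundant cathepsins CTSD, CTSB and CTSA and the cofactors PSAP and NPC2, while the protease gene CTSL rose 2.17-fold and the V-ATPase gene ATP6V1H rose 1.65-fold. Among the autophagy genes 5 rose, with MAP1LC3B at 2.09 times its control level, and 0 fell. Summed over the 27 lysosome genes, the libraries held 8507 to 8648 TPM in control and 7142 to 7422 after rutaecarpine. Summed over the 11 autophagy genes, they held 1277 to 1317 and 1870 to 1951 TPM. Both sums mostly follow the most abundant genes, PSAP, CTSD, CTSB, CTSA and NPC2 in the first and SQSTM1 in the second. In bulk RNA, fewer cells of a kind and less RNA per cell cannot be told apart.

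These calls came from limma on log2(TPM + 1), with p values adjusted over all 14377 genes by the Benjamini-Hochberg method, and a gene was called at an adjusted p of at most 0.05. Of all tested genes 4.60% rose and 4.68% fell, with a median log2 fold change of 0.08. Of the 27 lysosome genes 7.41% rose (2 genes) and 29.6% fell (8 genes), 17 were not called, and the median log2 fold change was -0.14. Of the 11 autophagy genes 45.5% rose (5 genes), 6 were not called, and the median was 0.39. At an unadjusted p under 0.05 limma also found 0 autophagy genes lower and 8 higher, and 10 lysosome genes lower and 4 higher, beside 1584 of all 14377 tested genes lower and 1922 (13.4%) higher. Genes with an absolute log2 fold change above 1 beside the adjusted p, counted as DEGs, were 3.51% of all genes and numbered 1 in each set, CTSL and MAP1LC3B. Without control replicate 3 the log2 fold change of MAP1LC3B was just under 1, at 0.9965, and that of GPNMB was past it, at -1.04. The paper, which used other tests, lists GPNMB among its down-regulated DEGs.

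Counting only whether all rutaecarpine libraries lay beyond all control libraries, the groups did not overlap for 33.3% of all tested genes. Among the lysosome genes they did not overlap for 17 (63.0%), 5 higher and 12 lower after rutaecarpine. Among the autophagy genes they did not overlap for 7 (63.6%), all 7 higher. The counts moved with the scaling: with libraries centred on their medians, 3 lysosome genes rose and 2 fell, and 3 autophagy genes rose. The share of all tested genes called after centring was not taken, so this change cannot be read as particular to these genes. Without control replicate 3, 5 lysosome genes rose and 10 fell, 5 autophagy genes rose and 0 fell, and the medians were -0.15 and 0.29 beside -0.01 for all genes. In that fit 8.36% of all tested genes rose and 10.3% fell.

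**Figure D1:**
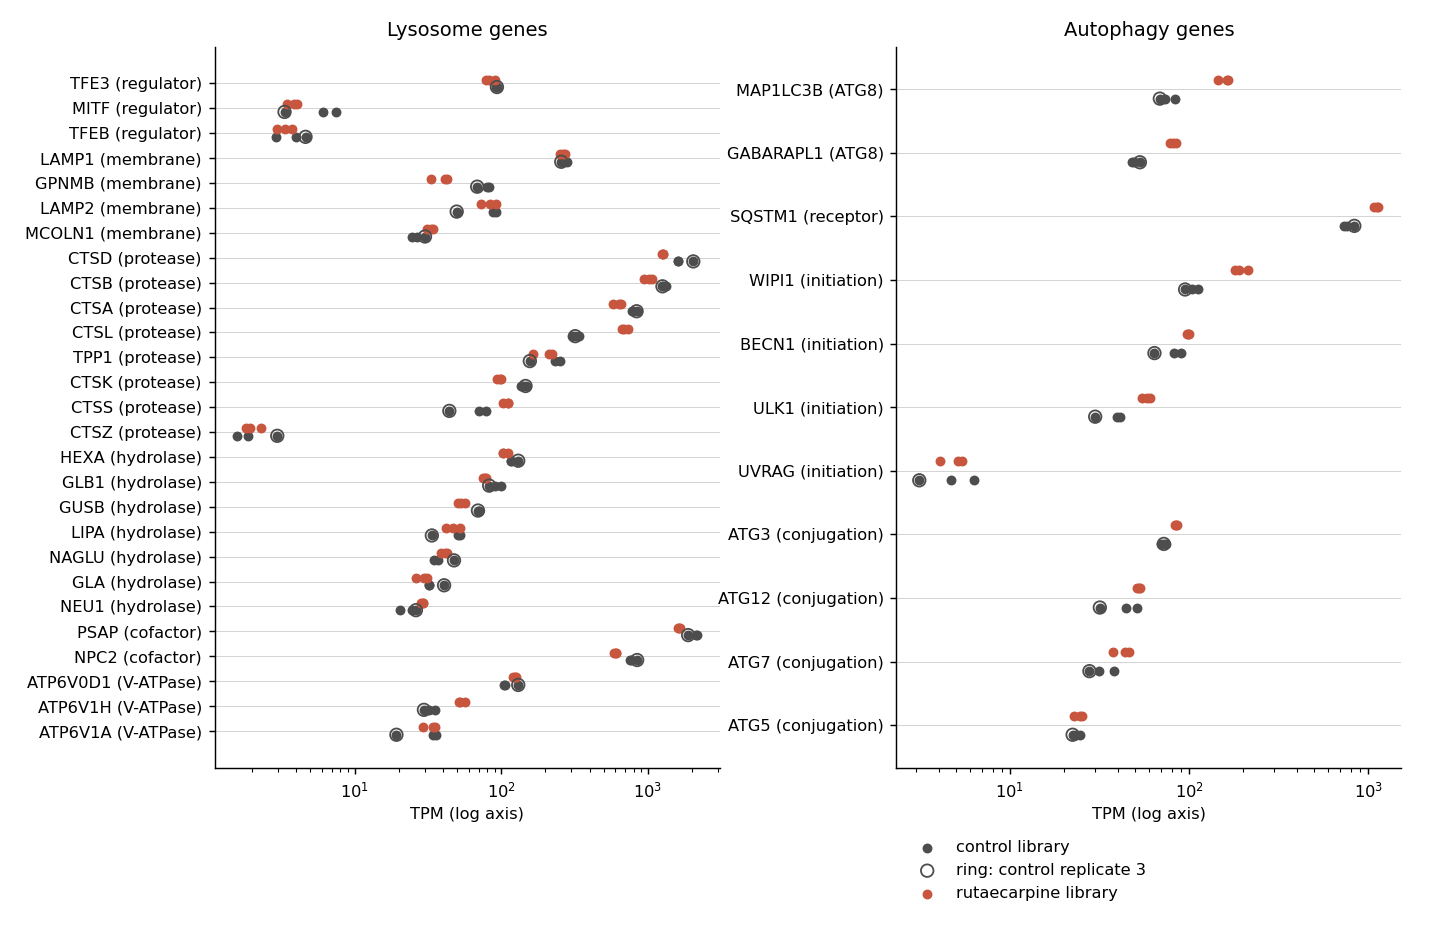
TPM of each gene in each library on a log axis, lysosome genes left and autophagy genes right, points coloured by group, with control replicate 3 ringed. The control and rutaecarpine points of CTSL and MAP1LC3B stand clear of each other, while those of LAMP1, TFEB and ATG5 overlap.

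**Figure D2:**
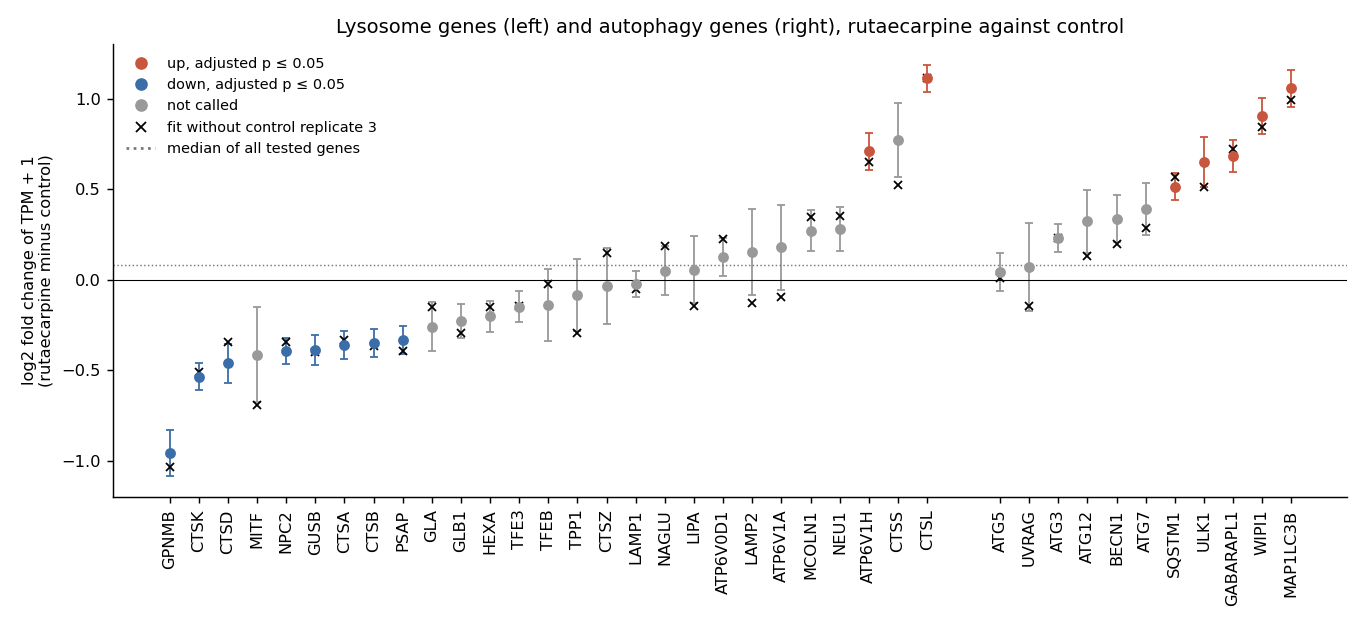
Log2 fold change of rutaecarpine over control for each gene on the log2(TPM + 1) scale, with bars of 1 standard error from limma, coloured by call, with crosses for the fit without control replicate 3 and a dotted line at the median of all tested genes. CTSL is the highest of the lysosome genes at 1.12 and GPNMB the lowest at -0.96, and the 11 autophagy genes lie above 0.

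Short stretches of promoter are shown because the regulators TFEB, TFE3 and MITF bind the E-box CACGTG and the aryl hydrocarbon receptor, a receptor the study was designed around, binds sites with the core GCGTG. RefSeq windows on GRCh38.p14, from 250 bases before to 50 after a gene's start, matched 28 of the 38 genes with 38 windows. The first lines below hold the 7 genes with an E-box in a window, and the last lines hold 4 called genes with a core and no E-box. Each line is 30 bases, 5′ to 3′ on the gene's strand, with the motif in capitals, on either strand, so that the core can read CACGC. The stretches of CTSA, CTSD, ATP6V0D1, ATG3, CTSL, MAP1LC3B and GUSB lie at least in part in an exon that GENCODE annotates, so they are not all upstream of every transcript.
CTSA (called down), chr20:45891289-45891318, plus strand: ctgtCACGTGgcgccggagttCACGTGact
CTSD (called down), chr11:1763957-1763986, minus strand: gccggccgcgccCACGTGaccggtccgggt
LAMP1 (not called), chr13:113297043-113297072, plus strand: gggtCACGTGggtccagggtCACGTGccgc
MCOLN1 (not called), chr19:7522571-7522600, plus strand: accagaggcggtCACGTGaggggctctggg
NEU1 (not called), chr6:31862930-31862959, minus strand: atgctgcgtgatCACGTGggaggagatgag
ATP6V0D1 (not called), chr16:67481199-67481228, minus strand: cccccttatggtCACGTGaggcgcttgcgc
ATG3 (not called), chr3:112561952-112561981, minus strand: tCACGTGccgggagagtctagtgtCACGTG
CTSL (called up), chr9:87725931-87725960, plus strand: ccactgaggcaggCACGCccagctctggga
MAP1LC3B (called up), chr16:87392169-87392198, plus strand: CACGCgcacacacctgctccgccccCACGC
ULK1 (called up), chr12:131894544-131894573, plus strand: cccgtctgttcgtCACGCccggctctgccg
GUSB (called down), chr7:65982244-65982273, minus strand: gacaccggcgcgtCACGCgacccgccctac

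The E-box, which reads the same on both strands, was in 7.26% of all 35116 windows and in 18.4% of the windows of these genes. In all 7 genes it also read TCACGTG or its complement CACGTGA, a longer form that contains the E-box and was in 3.71% of all windows. Of the 6 genes called up that had a window, 0 held an E-box, and of the 5 called down, CTSA and CTSD did. In CTSA the E-boxes began 42 and 25 bases before the start and in CTSD 47 bases before it. The core GCGTG on either strand was in 36.5% of all windows and in 44.7% of these, with CTSL, MAP1LC3B and ULK1 among the genes called up and CTSA, CTSD and GUSB among those called down. The paper searched for a longer form, CACGCNA or TNGCGTG with N any base, in longer stretches than these windows. A core counted here therefore need not be a site of that form. A match of letters is a description and not a site, and the numbers of genes are small.

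Among the 8 protease genes, CTSL rose, CTSD, CTSB, CTSA and CTSK fell, and CTSS, CTSZ and TPP1 were not called. CTSL (ENSG00000135047, chr9:87725519-87731393 on GRCh38) encodes cathepsin L, a cysteine endopeptidase. Its TPM were 305, 337 and 319 in control libraries and 666, 727 and 692 in rutaecarpine libraries. No rutaecarpine library came near a control library. The log2 fold change was 1.12 ± 0.07 (SE, limma adjusted p = 0.000445), and the call held in each of the 6 fits that left out 1 library. Its 7 named pseudogene copies summed to 0.033 TPM in control and 0 in rutaecarpine libraries.

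CTSS, which encodes cathepsin S, an endopeptidase best known from antigen-presenting cells, was at 78.9, 70.95 and 44.3 TPM in control and at 103, 111 and 111 in rutaecarpine libraries. The groups did not overlap, but control replicate 3 lay far under the other control libraries. The log2 fold change was 0.77 ± 0.20 (adjusted p = 0.0635), which misses the threshold, and 0.52 (adjusted p = 0.00396) without control replicate 3.

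CTSD encodes cathepsin D, an aspartic protease and the most abundant protease among these genes. Its TPM were 1607, 1597 and 2039.75 in control libraries and 1277, 1258 and 1248 in rutaecarpine libraries. All rutaecarpine libraries lay under all control libraries, and control replicate 3 was the highest. CTSD fell by 0.46 on the log2 scale (SE 0.11, adjusted p = 0.0434), and by 0.34 (adjusted p = 0.00492) without control replicate 3. CTSD shares its locus with AC068580.4 on the same strand (76.0 TPM in control and 89.8 in rutaecarpine libraries), so reads of both had to be divided.

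CTSB, cathepsin B, a cysteine protease often studied in tumor invasion, was at 1261, 1335 and 1257 TPM in control and at 1074, 939 and 1016 in rutaecarpine libraries. CTSA, which encodes a carboxypeptidase that also protects the enzymes encoded by NEU1 and GLB1, was at 797, 779 and 838 TPM and at 660.03, 582 and 639. Both genes were lower in every rutaecarpine library than in any control library. Their log2 fold changes were -0.35 ± 0.08 (adjusted p = 0.0375) and -0.36 ± 0.08 (adjusted p = 0.0325). CTSA overlaps PLTP on the opposite strand, which was at 526 TPM in control and 321 in rutaecarpine libraries. Whether the libraries kept strand is not stated, and the part of PLTP reads in the CTSA values was not tested.

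CTSK, cathepsin K, a collagen-cleaving cysteine protease best known from osteoclasts, was at 141, 136 and 146 TPM in control and at 99.4, 93.85 and 97.7 in rutaecarpine libraries. It fell by 0.54 on the log2 scale (SE 0.08, adjusted p = 0.00618), and the call held in each fit that left out 1 library. Of 4 osteoclast markers only ACP5 was above 1 TPM in any library, at 17.9 ± 4.13 in control and 11.5 ± 0.848 in rutaecarpine libraries (SD, n = 3 each). TPP1, a tripeptidyl peptidase, was at 214 ± 50.4 and 199 ± 31.3 TPM (log2 fold change -0.08, and -0.29 without control replicate 3), and CTSZ, cathepsin Z, was at 2.15 ± 0.728 and 2.03 ± 0.250 TPM, and neither passed the test.

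The share of CTSL was higher after rutaecarpine within the 7 cathepsin genes of the 38 (CTSA, CTSB, CTSD, CTSK, CTSL, CTSS and CTSZ), a sum that leaves out CTSC, CTSF, CTSH and CTSO of the further lists. CTSL made up 7.28%, 7.92% and 6.87% of their summed TPM in control libraries and 17.2%, 19.6% and 18.2% in rutaecarpine libraries. CTSD made up 38.3%, 37.5% and 43.9% in control and 32.9%, 33.9% and 32.8% in rutaecarpine libraries. The sum itself was 4365 ± 247 TPM in control and 3800 ± 85.3 in rutaecarpine libraries (SD, n = 3 each), so the rise of CTSL did not offset the falls. Among the 5 cysteine cathepsins of these (CTSB, CTSK, CTSL, CTSS and CTSZ), CTSL and CTSS together held 21.2% ± 0.616 in control and 42.1% ± 2.61 in rutaecarpine libraries. CTSL and CTSS are those of the 5 that lay higher after rutaecarpine, so their joint share repeats those values and is no further support. For each of these shares the groups did not overlap, and the two-sided exact permutation test gave p = 0.1, the smallest that 3 libraries against 3 allow (0.145 after Benjamini-Hochberg adjustment over 16 shares).

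**Figure D3:**
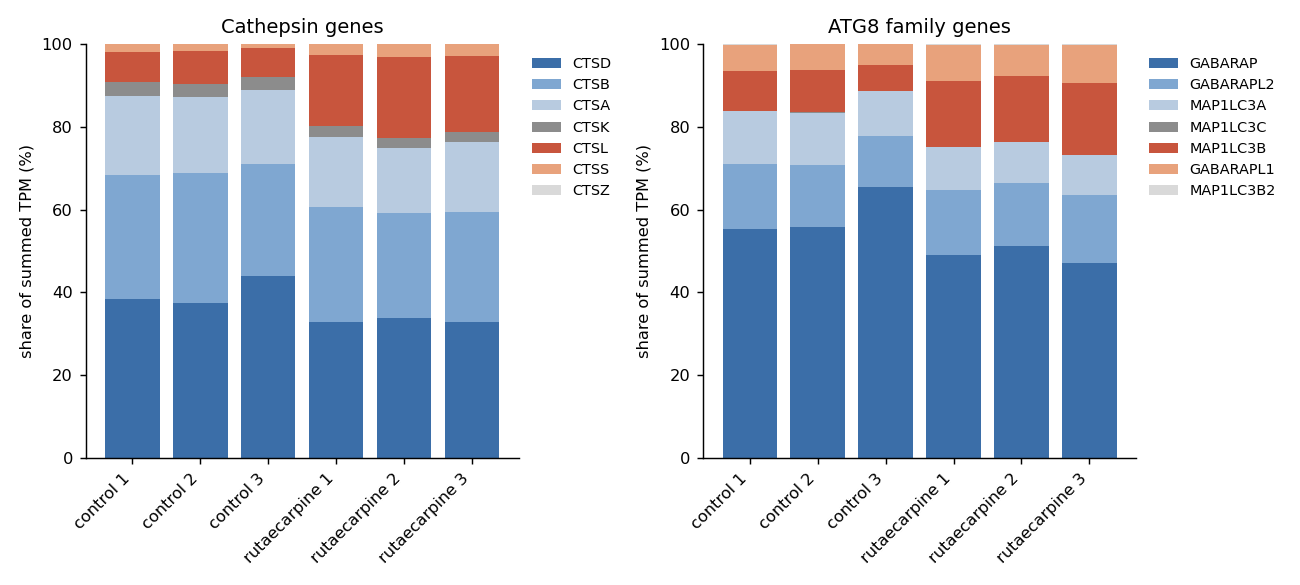
Stacked bars, starting at 0, of the share in percent of summed TPM that each gene held in each library, for the 7 cathepsin genes and for the 7 genes of the ATG8 family. CTSL goes from 6.87% to 7.92% in control to 17.2% to 19.6% in rutaecarpine libraries, and MAP1LC3B from 6.39% to 10.3% to 15.8% to 17.4%.

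Both genes of cofactors of lipid breakdown fell. PSAP, which encodes prosaposin, the precursor of the saposins that present sphingolipids to their hydrolases, was at 2134, 2149 and 1882 TPM in control and at 1613, 1622 and 1649 in rutaecarpine libraries. NPC2, which carries cholesterol out of the lysosome lumen, was at 763, 754 and 845 TPM and at 605, 584 and 607. In both genes the highest rutaecarpine library lay under the lowest control library. The log2 fold changes were -0.33 ± 0.08 (adjusted p = 0.0458) and -0.39 ± 0.07 (adjusted p = 0.0196).

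Of the 7 genes of other hydrolases, GUSB fell and 6 were not called. GUSB, a beta-glucuronidase, was at 70.6, 70.9 and 69.4 TPM in control and at 53.3, 56.35 and 50.9 in rutaecarpine libraries, with no overlap. Its log2 fold change was -0.39 ± 0.08 (adjusted p = 0.0313). Its 11 named pseudogene copies summed to 8.60 TPM in control and 8.35 in rutaecarpine libraries, and division of reads between copies makes its level uncertain. HEXA, the alpha subunit of beta-hexosaminidase, was at 121 ± 8.05 and 105 ± 4.91 TPM (SD, n = 3 each, adjusted p = 0.204). GLB1, a beta-galactosidase, was at 91.1 ± 8.43 and 77.4 ± 1.63 TPM (adjusted p = 0.193, and 0.0305 without control replicate 3). GLA, an alpha-galactosidase, was at 35.1 and 29.1 TPM (log2 fold change -0.26, and -0.15 without control replicate 3). Each of these 3 genes was lower in all rutaecarpine libraries than in all control libraries without passing the test. NEU1, a sialidase, lay higher at 23.8 and 29.02 TPM (adjusted p = 0.213). NAGLU, which degrades heparan sulfate, was at 39.8 and 40.9 TPM, and LIPA, the lysosomal acid lipase, at 45.7 and 46.8, and their groups overlapped.

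The calls of CTSA, CTSB, CTSD, GUSB, PSAP and NPC2 were made with small margins. In the 6 fits that each left out 1 library, each of the 6 genes was called only in the fit without control replicate 3, and the highest adjusted p ranged from 0.0947 for NPC2 to 0.178 for PSAP. In every one of those fits they stayed lower after rutaecarpine. CTSA, CTSB, CTSD, PSAP and NPC2, with CTSL and the autophagy receptor gene SQSTM1, are also the 7 of the 38 genes with a mean of at least 500 TPM, a level chosen after the values were seen. Of all 263 tested genes at that level, 11.8% fell and 7.6% rose, with a median log2 fold change of -0.12.

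The genes of the 4 membrane proteins differed. GPNMB, a glycoprotein of melanosomes and lysosomes that is raised in many glioblastomas, was at 80.0, 82.1 and 68.55 TPM in control and at 42.7, 33.4 and 41.6 in rutaecarpine libraries. The groups were well apart, and GPNMB had the largest fall of the 38 genes, with a log2 fold change of -0.96 ± 0.13 (adjusted p = 0.00551) that was called in each fit that left out 1 library. Markers of melanocytes, the other well known source of GPNMB, summed to 1.59 to 2.28 TPM in control and 0.62 to 2.5 in rutaecarpine libraries over 4 genes, with TYR at 0 in all 6 libraries.

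LAMP1, the major glycoprotein of the lysosome membrane and often used as a measure of lysosome content, was at 281, 265 and 257 TPM in control and at 263, 253 and 273 in rutaecarpine libraries. The groups overlapped, and the log2 fold change was -0.02 ± 0.07 (adjusted p = 0.868). LAMP2, its relative with a role in autophagosome fusion, was at 92.2, 88.3 and 49.7 TPM and at 83.5, 72.8 and 92.6 (adjusted p = 0.716), and its fold change turned from 0.16 to -0.13 without control replicate 3. MCOLN1, a calcium channel of the lysosome membrane, was at 27.2 ± 2.85 and 32.9 ± 1.496 TPM (SD, n = 3 each, adjusted p = 0.203, and 0.0382 without control replicate 3).

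Of the 3 V-ATPase genes, ATP6V1H rose. It encodes a regulatory subunit of the cytosolic part of the pump and was at 32.0, 35.1 and 29.7 TPM in control and at 52.2, 51.6 and 56.3 in rutaecarpine libraries. The lowest rutaecarpine library lay well over the highest control library. The log2 fold change was 0.71 ± 0.10 (adjusted p = 0.0069), and the call was lost in the fit without rutaecarpine replicate 3, at an adjusted p of 0.0509. ATP6V0D1, of the membrane part of the pump, was at 114 and 124 TPM (adjusted p = 0.502, and 0.0458 without control replicate 3). ATP6V1A, the catalytic subunit, was at 35.7, 34.5 and 19.3 TPM in control and at 34.1, 29.3 and 35.2 in rutaecarpine libraries (adjusted p = 0.669), and its fold change turned negative without control replicate 3.

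The genes of the 3 transcription factors gave 0 calls in limma, and 0 at an unadjusted p under 0.05. TFE3 was the most abundant at 93.0 ± 0.487 TPM in control and 84.0 ± 6.11 in rutaecarpine libraries (SD, n = 3 each, adjusted p = 0.337), with all rutaecarpine libraries lower. TFEB was at 3.83 ± 0.878 and 3.34 ± 0.405 TPM (adjusted p = 0.695). MITF was at 6.06, 7.43 and 3.33 TPM in control and at 3.87, 4.05 and 3.44 in rutaecarpine libraries (log2 fold change -0.41, adjusted p = 0.386, and -0.69, adjusted p = 0.0243, without control replicate 3). These are transcript levels, and the activity of the factors, which depends on their place in the cell, was not measured.

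Among the autophagy genes the rise was clearest for both ATG8 genes, for SQSTM1 and for WIPI1 and ULK1, which act at the start of the process. MAP1LC3B (ENSG00000140941, chr16:87383995-87404779 on GRCh38) encodes LC3B, the ATG8 protein most used as an autophagosome marker. It was at 73.0, 83.7 and 68.7 TPM in control libraries and at 145, 162 and 164 in rutaecarpine libraries. Every rutaecarpine library was above every control library by a wide gap. This was a log2 fold change of 1.06 ± 0.10 (adjusted p = 0.00156). GABARAPL1, the second ATG8 gene, was at 48.0, 49.6 and 53.2 TPM and at 81.0, 77.95 and 85.1, again with no overlap, a log2 fold change of 0.68 ± 0.09 (adjusted p = 0.0046). Both calls held in each fit that left out 1 library. GABARAPL1 was not called with libraries centred on their medians, where its log2 fold change was 0.59. In that fit 3 autophagy genes were called up, so GABARAPL1 was not the only 1 of the 5 to lose its call. The near-identical gene MAP1LC3B2 was at 1.07 ± 1.03 and 2.10 ± 0.670 TPM, and reads shared with MAP1LC3B were divided by the quantification.

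SQSTM1, which encodes p62, a receptor that carries ubiquitinated cargo into autophagosomes and is itself degraded there, was at 736, 766 and 837 TPM in control and at 1080.05, 1142 and 1119.7 in rutaecarpine libraries. The groups did not overlap. SQSTM1 rose by 0.51 ± 0.08 on the log2 scale (adjusted p = 0.00786), a call lost without rutaecarpine replicate 3 at an adjusted p of 0.0539. It overlaps MGAT4B on the opposite strand, which was at 241 TPM in control and 240.2 in rutaecarpine libraries.

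Of the 4 initiation genes, WIPI1 and ULK1 rose. WIPI1, which binds phosphatidylinositol 3-phosphate at the forming membrane, was at 103, 112 and 95.1 TPM in control and at 189.9, 180.4 and 214 in rutaecarpine libraries. No library of one group came near the other group. WIPI1 rose by 0.90 ± 0.10 on the log2 scale (adjusted p = 0.00258), and the call held in each fit that left out 1 library. ARSG, which WIPI1 overlaps on the opposite strand, was at 3.32 TPM in control and 10.2 in rutaecarpine libraries.

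ULK1, the kinase that starts autophagy, was at 39.6, 41.2 and 29.9 TPM in control and at 60.8, 54.9 and 58.5 in rutaecarpine libraries. The groups did not overlap, and control replicate 3 was the lowest. The log2 fold change was 0.65 ± 0.14 (adjusted p = 0.0294), but the call held in only 2 of the 6 fits that left out 1 library, being lost without control replicate 1 or any 1 rutaecarpine replicate, at an adjusted p of up to 0.128. BECN1, which encodes Beclin 1 of the lipid kinase complex, was at 89.7, 82.55 and 64.1 TPM and at 97.4, 100.3 and 98.95 (log2 fold change 0.34, adjusted p = 0.17). Its groups did not overlap, yet it did not pass the test, and the log2 fold change was 0.20 without control replicate 3. UVRAG, a partner of Beclin 1, was at 4.72 ± 1.61 and 4.87 ± 0.698 TPM (adjusted p = 0.880).

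The 4 conjugation genes, whose enzymes attach ATG8 proteins to the membrane, gave 0 calls in limma, with 2 higher at an unadjusted p under 0.05. ATG3, the enzyme of the last step, was at 69.35, 74.8 and 72.3 TPM in control and at 85.9, 83.5 and 85.0 in rutaecarpine libraries, without overlap (log2 fold change 0.23 ± 0.08, adjusted p = 0.124). ATG7, the activating enzyme, was at 32.4 ± 5.11 and 42.6 ± 4.31 TPM (adjusted p = 0.151). ATG12 was at 42.5 ± 9.98 and 52.4 ± 1.07 TPM (adjusted p = 0.307), with a log2 fold change of 0.32 that was 0.13 without control replicate 3. ATG5, its conjugation partner, was at 23.4 ± 1.05 and 24.2 ± 1.25 TPM (SD, n = 3 each, adjusted p = 0.834).

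Within the 7 genes of the ATG8 family in the table, MAP1LC3B held 9.62%, 10.3% and 6.39% of the summed TPM in control libraries and 15.8%, 15.9% and 17.4% in rutaecarpine libraries. GABARAPL1 held 6.33%, 6.12% and 4.95% and then 8.81%, 7.64% and 9.02%. GABARAP, the most abundant gene of the family, held 55.3%, 55.7% and 65.4% in control and 49.0%, 51.2% and 47.2% in rutaecarpine libraries. GABARAP itself was at 525 ± 155 and 473 ± 43.6 TPM (SD, n = 3 each, adjusted p = 0.746), with a log2 fold change of -0.12 that turned to 0.11 without control replicate 3. MAP1LC3B and GABARAPL1 together held 14.6% ± 2.82 in control and 24.9% ± 1.45 in rutaecarpine libraries (two-sided exact permutation p = 0.1, again the smallest the design allows, 0.145 adjusted). Both genes were called up, so their joint share repeats those values and is no further support. MAP1LC3A, GABARAPL2 and MAP1LC3B2 were not called.

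To place the 38 genes within their pathways, 133 further genes of 9 lists were read from the same fit. Of the 85 lysosome genes tested, 5 rose (5.88%) and 5 fell (5.88%), against 4.60% and 4.68% of all genes, and the median log2 fold change was 0.11. Of the 48 further autophagy genes 46 were tested, 6 rose, 0 fell and the median was 0.29. Summed TPM ranged from 9344 to 9854 in control and from 9067 to 9186 in rutaecarpine libraries for the further lysosome genes. For the further autophagy genes it ranged from 2689 to 2776 and from 3072 to 3176. In limma at an unadjusted p under 0.05, 15 of these autophagy genes were higher and 1 lower, where 1922 of all 14377 tested genes (13.4%) were higher and 1584 lower, counts against which the unadjusted counts of each list below can be read. Without control replicate 3, 12 lysosome genes rose and 11 fell, and 12 autophagy genes rose and 1 fell, where 8.36% of all genes rose and 10.3% fell.

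The 30 further hydrolase genes gave 4 falls and 0 rises in limma, with 2 higher and 5 lower at an unadjusted p under 0.05. FUCA1, which removes fucose, was at 24.0 ± 0.873 TPM in control and 15.2 ± 0.913 in rutaecarpine libraries (log2 fold change -0.63 ± 0.11, adjusted p = 0.0158). CTSC, a dipeptidyl peptidase that activates serine proteases, was at 44.4 ± 4.21 and 31.4 ± 0.791 TPM (adjusted p = 0.0332), and SMPD1, the acid sphingomyelinase, at 117 ± 6.43 and 91.9 ± 3.37 TPM (adjusted p = 0.0435). Of 14 membrane and transport genes CD68, a scavenger glycoprotein, fell from 472.5 ± 33.0 to 342 ± 20.7 TPM (adjusted p = 0.0178) and CLCN7, a chloride transporter, rose from 47.8 ± 0.597 to 64.2 ± 5.19 TPM (adjusted p = 0.0372). In that list 7 genes were higher and 3 lower in limma at an unadjusted p under 0.05. Its median log2 fold change was 0.39, and 0.29 without control replicate 3. The 10 genes of sorting to the lysosome gave 0 calls, with 3 higher and 0 lower at an unadjusted p under 0.05.

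Of 13 further V-ATPase genes 2 rose and 0 fell, with a median log2 fold change of 0.24 and 5 higher and 0 lower at an unadjusted p under 0.05. ATP6V1G1 went from 61.0 ± 3.19 to 88.2 ± 1.73 TPM (adjusted p = 0.00918) and ATP6V1E1 from 134 ± 15.2 to 185 ± 6.56 TPM (SD, n = 3 each, adjusted p = 0.0294), both subunits of the cytosolic part like ATP6V1H. ATP6V1C1, another subunit of that part, named after its values were seen, had a log2 fold change of 1.08 ± 0.31 (adjusted p = 0.0821), and of 0.70 (adjusted p = 0.00879) without control replicate 3. Of 18 genes of mTORC1 control 2 rose and 0 fell, with 5 higher and 1 lower at an unadjusted p under 0.05. RPTOR, which encodes the subunit of mTORC1 that recruits substrates, was at 24.85, 23.8 and 20.15 TPM in control and at 51.6, 40.1 and 51.7 in rutaecarpine libraries. Its log2 fold change of 1.02 ± 0.14 (adjusted p = 0.00606) made it the only DEG of the 133 genes, and its call held in each fit that left out 1 library. Without control replicate 3 the log2 fold change of RPTOR was 0.94, under the DEG threshold of 1. RRAGA, a GTPase that brings mTORC1 to the lysosome, rose from 107 ± 3.38 to 149 ± 3.02 TPM (adjusted p = 0.00835).

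In the autophagy lists the calls were spread over the steps. Of 14 tested genes of initiation and nucleation 3 rose and 0 fell, with 6 higher and 1 lower at an unadjusted p under 0.05. WDR45, a relative of WIPI1, went from 67.4 ± 5.16 to 101 ± 2.84 TPM (adjusted p = 0.00858), ATG13, a subunit of the ULK1 complex, from 51.3 ± 3.26 to 73.5 ± 6.35 TPM (adjusted p = 0.0249), and ATG2A, a lipid transfer protein, from 17.3 ± 0.481 to 26.2 ± 2.10 TPM (adjusted p = 0.0227). ATG4B, the protease that trims ATG8 proteins, was the 1 gene called among 10 tested conjugation and ATG8 genes, from 52.3 ± 2.48 to 70.7 ± 3.49 TPM (adjusted p = 0.0271). In that list 2 genes were higher and 0 lower at an unadjusted p under 0.05. Of 12 fusion genes RAB7A, a GTPase of late endosomes, rose from 231 ± 8.23 to 287 ± 14.0 TPM (adjusted p = 0.0452) and VPS33A from 11.1 ± 0.677 to 17.4 ± 1.29 TPM (SD, n = 3 each, adjusted p = 0.0302). Among the fusion genes 3 were higher and 0 lower at an unadjusted p under 0.05. The 10 further receptor genes gave 0 calls, with 4 higher and 0 lower at an unadjusted p under 0.05.

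Most of these calls in the further lists were lost as readily, when 1 library was left out, as those of the abundant cathepsins. Of the 16 further genes called, CTSC, ATP6V1G1, RRAGA, RPTOR, WDR45 and ATG13 kept the call in 2 or more of the 6 fits that left out 1 library, and the other 10 kept it in 1, the fit without control replicate 3.

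**Figure D4:**
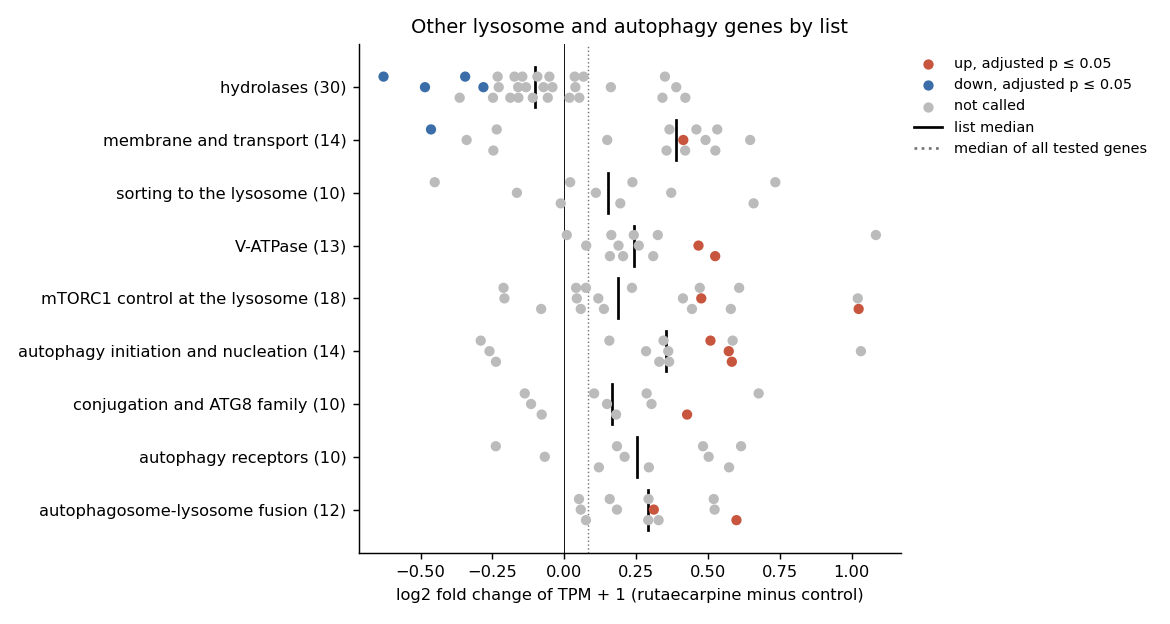
Log2 fold change of rutaecarpine over control on the log2(TPM + 1) scale for each tested gene of the 9 further lists, coloured by call, with a bar at the median of each list. The hydrolase list has its median at -0.10 and its calls under 0, the V-ATPase list its median at 0.24 and its calls above 0, and of the 4 points past 1 RPTOR was called, while ATP6V1C1, RB1CC1 and FNIP2 were not. Without control replicate 3 these 4 values, in that order, were 0.94, 0.70, 0.60 and 0.59.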

How the data were processed

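RNA-Seq was performed on 6 libraries of U87 cells, 3 per group, with groups taken from the sample titles. Fragmented RNA was sequenced on an Illumina NovaSeq, and the deposited table holds TPM that the authors estimated with RSEM, in a column for each library. The submitters' processing notes name RSEM, DESeq2, edgeR and the build GRCh38.p13, and the authors tested genes with DESeq2, DEGseq or edgeR. The aligner, the annotation release and whether the libraries kept strand are not given in the sources used here. TPM keep no read numbers, so tests for read counts were not used and the depth is unknown.

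TPM were transformed to log2(TPM + 1), and genes that reached a TPM of 1 in 3 or more libraries were compared with limma 3.58.1 in R 4.3.3 (empirical Bayes with a mean-variance trend, two-sided, no covariates, no normalization added). The p values were adjusted over all 14377 genes by the Benjamini-Hochberg method. Fold changes on this scale understate those of weakly expressed genes. Shares were compared with a two-sided exact permutation test. Tables and figures were made in Python 3.11.15 (numpy 2.4.6, pandas 2.3.3, scipy 1.17.1, matplotlib 3.10.9). Gene positions, overlaps and copies came from GENCODE release 29 on GRCh38, and promoters from RefSeq on GRCh38.p14.

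The 38 genes, the further lists and the tests were chosen with earlier results of these data known. Every gene of the 38 that was called is named, with those of the highest level in each role among the others, and from each further list at most the 3 called genes with the largest absolute log2 fold change. All 38 genes are in fact named, and ATP6V1C1, RB1CC1, FNIP2, CTSF, CTSH, CTSO and genes of the ATG8 family are named outside the rule. Alternatives were median centring, no trend, no filter, a TPM of at least 1 in all 6 libraries, a pseudocount of 0.1, a replicate block, library weights, an adjusted p of at most 0.01 and leaving out each library. Removing trends on length and GC content was added after the data were seen.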

Additional observations from a re-analysis of the deposited data

How the results depend on the processing

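None of the 15 called genes of the 38 changed direction under the 15 alternatives, and 6 of them (CTSL, GPNMB, CTSK, MAP1LC3B, GABARAPL1 and WIPI1) kept their call in each fit that left out 1 library. Against 2 lysosome genes called up, 8 called down and 5 autophagy genes called up, leaving out 1 library gave 1 to 5, 2 to 10 and 3 to 5. For the further lists, 5 lysosome genes up, 5 down, 6 autophagy genes up and 0 down became 1 to 12, 0 to 11, 0 to 12 and 0 to 1. With libraries centred on their medians, 2 lysosome genes were called down and 3 autophagy genes up, with medians of -0.23 and 0.30, and the further lists gave 2 lysosome genes up, 1 down and 2 autophagy genes up. Without the trend 2 lysosome genes were called down, and the further lists gave 3 up, 1 down and 3 autophagy genes up. Without the filter 3 lysosome genes were called down, and the further lists gave 3 up and 2 down. Library weights called 6 lysosome genes up and 8 autophagy genes up, and in the further lists 22 lysosome genes up, 13 down, 14 autophagy genes up and 2 down. Removing length and GC trends gave in the further lists 12 lysosome genes up, 10 autophagy genes up and 1 down. At an adjusted p of at most 0.01, 2 lysosome genes were called down, and the further lists gave 3 up, 0 down and 1 autophagy gene up. The cause of these differences was not tested, except that the stricter threshold calls fewer by construction. The share of all tested genes called was taken only for the main fit and the fit without control replicate 3. Counts under the other settings therefore cannot be read as particular to these genes.

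Same-numbered libraries showed no shared deviation (correlations of 0.12, -0.27 and -0.22). In groups this small, and with control replicate 3 apart, these values cannot settle whether the numbers pair the libraries. With a replicate block, 1 lysosome gene was called up, 1 down and 3 autophagy genes up, and the further lists gave 1 up, 0 down and 0 autophagy genes up. Here too the share of all tested genes called was not taken. The median of the autophagy genes ranged from 0.29 to 0.48 when 1 library was left out.

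Among the 23 genes not called, 9 changed sign under some alternative, with values from -0.147 to 0.177. Centring turned NAGLU to -0.0423, LIPA to -0.0372, UVRAG to -0.0233 and ATG5 to -0.051. Library weights turned LAMP2 to -0.0587, CTSZ to 0.177, LIPA to -0.0934, ATP6V1A to -0.0268 and UVRAG to -0.0993. Removing length and GC trends turned LAMP2 to -0.0312, CTSZ to 0.00826, LIPA to -0.11, UVRAG to -0.0815 and ATG5 to -0.144. Leaving out 1 library gave -0.0525 to 0.0126 for LAMP1, -0.127 to 0.313 for LAMP2, -0.161 to 0.147 for CTSZ, -0.292 to 0.0496 for TPP1, -0.0389 to 0.185 for NAGLU, -0.146 to 0.169 for LIPA, -0.0957 to 0.331 for ATP6V1A and -0.147 to 0.269 for UVRAG. Precision was limited by 3 libraries a group and an unknown depth, with standard errors of 0.20 for TFEB and 0.24 for UVRAG on the log2 scale.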
